A study of Homo sapiens with 20 samples.

Results

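The 9 genes described here encode chaperones: AHSP, which encodes the alpha globin stabilizing protein, and 8 heat shock protein genes, HSPA1A, HSPA1B, HSPA8, HSPA9, HSPB1, HSP90AA1, HSPH1 and DNAJB1. They were chosen by name, and the values of their transcripts were summed by gene in each library, which left 9 of the 46425 genes of the deposited transcript tables. All 9 passed the filter on low counts, and the lowest count of any of them in any library was 2916, for HSPB1. The libraries came from HUDEP-2 cells, a wild-type human erythroid progenitor line that was made immortal and came from cord blood. RNA was taken on days 0, 1, 2, 3, 4, 5, 6, 7, 8 and 12, with 2 libraries a day and 20 in all. Day 0 cells were in expansion medium, StemSpan SFEM with erythropoietin, stem cell factor, doxycycline and, in the study's methods, dexamethasone. From day 0 the cells were moved to IMDM with holo-transferrin, AB human serum, heparin, insulin, L-glutamine, erythropoietin, stem cell factor and doxycycline. Stem cell factor was left out from day 6 and doxycycline from day 8, so the later days differ from the earlier ones in medium as well as in time, and these cannot be told apart. The study placed day 0 at the proerythroblast stage, days 4 to 6 at the basophilic stages, day 8 at the polychromatic stage and day 12 at the orthochromatic and reticulocyte stages.

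Chaperones bind proteins that are not yet folded or have lost their fold, and keep them from clumping. AHSP binds free alpha globin until a beta globin chain takes it up, and it is made almost only in red cell precursors, where alpha globin in excess is toxic. HSP70 proteins hold short hydrophobic stretches of their clients in cycles of ATP use. In that cycle DNAJB1, a J-domain protein, starts the breakdown of ATP, and HSPH1, of the HSP110 family, lets ADP go. HSPA8 is the HSP70 made in cells at rest, and HSPA9 works in mitochondria. HSPA1A and HSPA1B are heat-inducible HSP70 proteins and near-copies of each other. HSP90AA1 is the inducible form of cytosolic HSP90, which matures kinases and steroid receptors. HSPB1 is a small heat shock protein that holds unfolded clients without ATP. In erythroblasts HSP70 is known to shield the transcription factor GATA1 from caspase cleavage.

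Libraries held 52131713 to 70358198 counts, so that 3 counts stood for 0.0426 to 0.0576 CPM (counts scaled to a common library size). Of the 12 erythroid markers, all were at 1 TPM (a length-corrected share of a library's transcripts) or more on every day, and their summed level lay between 31700 and 32250 TPM on day 0. Of the 9 markers of other blood and stromal cells, ELANE, CD3E and PF4 were at 0 in every library, and the list's summed level ran from 11.4 to 70.4 TPM on day 0 and from 0.305 to 0.550 TPM on day 8. The libraries tabulated in separate groups of days (days 0 to 6, days 7 and 8, and day 12) are called set A here. Those in the table of all days are called set B. In set A the table thus changes between days 6 and 7 and between days 8 and 12. There a difference between tables and one between days cannot be told apart. Ribosomal RNA took 18.5% and 17.5% of counts in the set A libraries of days 7 and 8, against at most 4.08% in the other 18. Globin genes took 0.819 to 4.39% of counts on days 0 to 6, 7.50 to 9.85% on days 7 and 8, and 28.2 to 33.7% on day 12. On the TPM scale they took 59.4% and 63.0% of the 2 day 12 libraries. Values are therefore given on both of the usual scales. One is TPM, in which a gene loses share when another gains. The other is CPM after trimmed mean of M-values (TMM) normalization, which lines up the bulk of the genes. From day 8 to day 12 the median of all 16784 genes tested moved by -0.20 (log2) with TMM and by -0.68 on log2(TPM + 1). From day 0 to day 8 it moved by 0.00 and -0.34. With a pseudocount of 0.1 in place of 1 the TPM medians were -1.20 from day 8 to day 12 and -0.52 from day 0 to day 8.

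Upstream sequences are shown for the members whose start carried heat shock elements, the binding sites of heat shock factors, so that they can be set beside the courses of these genes below. RefSeq windows (GRCh38.p14) matched 8 of the 9 members, all but AHSP, with 11 windows. In each, 250 bases before the start site were searched. The element pair was searched as GAANNTTC and TTCNNGAA, each of which reads the same on both strands. The longer runs GAANNTTCNNGAA and TTCNNGAANNTTC, which each contain both pairs, were counted as well. A pair stood in 1 window each of HSPA1A, HSPA1B, HSPB1, HSPA8, HSP90AA1 and DNAJB1, against 11.6% of all 35116 windows. In the HSPA9 window, the HSPH1 window, the second HSP90AA1 window and the other 2 DNAJB1 windows these letters were not found. HSPA8 carried both kinds of the longer run and HSP90AA1 carried TTCNNGAANNTTC, against 0.441% of all windows for either. The stretches run 5′ to 3′ on the gene's strand and end at the base before the start, with element pairs in capitals.
HSPA1A, chr6:31815393-31815542, plus strand: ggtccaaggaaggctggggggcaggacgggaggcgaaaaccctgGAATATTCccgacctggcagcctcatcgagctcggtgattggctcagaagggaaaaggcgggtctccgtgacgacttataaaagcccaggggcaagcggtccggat
HSPA1B, chr6:31827588-31827737, plus strand: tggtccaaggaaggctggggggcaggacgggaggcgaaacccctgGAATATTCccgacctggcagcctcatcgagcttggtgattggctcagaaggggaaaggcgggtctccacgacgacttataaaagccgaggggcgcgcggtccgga
HSPA8, chr11:123062137-123062386, minus strand: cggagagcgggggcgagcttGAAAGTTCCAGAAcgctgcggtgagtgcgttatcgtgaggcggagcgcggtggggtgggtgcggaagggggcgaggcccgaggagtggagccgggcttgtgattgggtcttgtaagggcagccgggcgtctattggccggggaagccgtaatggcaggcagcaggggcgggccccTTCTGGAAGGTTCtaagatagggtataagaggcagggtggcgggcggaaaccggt
HSP90AA1, chr14:102087045-102087194, minus strand: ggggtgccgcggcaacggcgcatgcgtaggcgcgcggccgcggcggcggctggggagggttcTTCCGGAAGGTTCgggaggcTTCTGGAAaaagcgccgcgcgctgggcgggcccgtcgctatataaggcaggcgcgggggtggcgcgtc
DNAJB1, chr19:14518398-14518547, minus strand: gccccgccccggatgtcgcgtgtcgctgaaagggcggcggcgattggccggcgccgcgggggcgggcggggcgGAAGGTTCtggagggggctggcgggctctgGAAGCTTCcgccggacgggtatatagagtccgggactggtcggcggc
HSPB1, chr7:76302423-76302672, plus strand: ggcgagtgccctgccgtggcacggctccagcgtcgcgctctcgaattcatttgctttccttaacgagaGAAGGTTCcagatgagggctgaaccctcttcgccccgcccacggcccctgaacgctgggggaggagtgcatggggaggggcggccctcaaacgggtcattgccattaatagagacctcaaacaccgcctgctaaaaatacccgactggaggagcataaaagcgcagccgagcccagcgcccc
HSPA1A and HSPA1B lie side by side, and their 250-base windows were alike at 235 of 249 aligned bases (94.4%). Both held 1 pair, which began 106 bases before the start of HSPA1A and 105 bases before that of HSPA1B. Both also held TATAAA, present in 6.80% of all windows, 30 and 29 bases before the start. HSPA8 had the longer runs at 230 and 55 bases before its start, and HSP90AA1 had its one at 88. The pairs of DNAJB1 began 77 and 47 bases before its start and that of HSPB1 182 bases before its own. AGATAA, a form of the site bound by GATA1, was searched on both strands. It was in none of the 11 windows and in 9.17% of all windows. Other forms of that site were not searched, and AHSP had no window.

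AHSP (chromosome 16, 31527900 to 31528804) rose through the first week. Its level was 1546 TPM in set A and 1295 TPM in set B on day 0, and reached 3712 and 2417 TPM on day 6. It was 3488 and 3660 TPM on day 7, then 3353 and 3636 TPM on day 8 and later 1488 and 1028 TPM on day 12. Both day 8 libraries lay above both day 0 libraries, and the day 12 libraries overlapped with those of day 0. Set A was above set B on 8 of the 10 days, by a median of 0.38 on the log2 scale, and neighbouring days overlapped in all 9 steps when the days were ordered by their mean. By rank among all genes it moved from place 96 and 111 on day 0 to 25 and 23 on day 8 and 35 and 54 on day 12. In TMM-normalised CPM AHSP was 279 ± 45.4 (SD, n = 2) on day 0, 1038 ± 80.2 on day 8 and 1000 ± 65.4 on day 12, so the lower TPM of day 12 was absent on that scale.

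**Figure D1:**
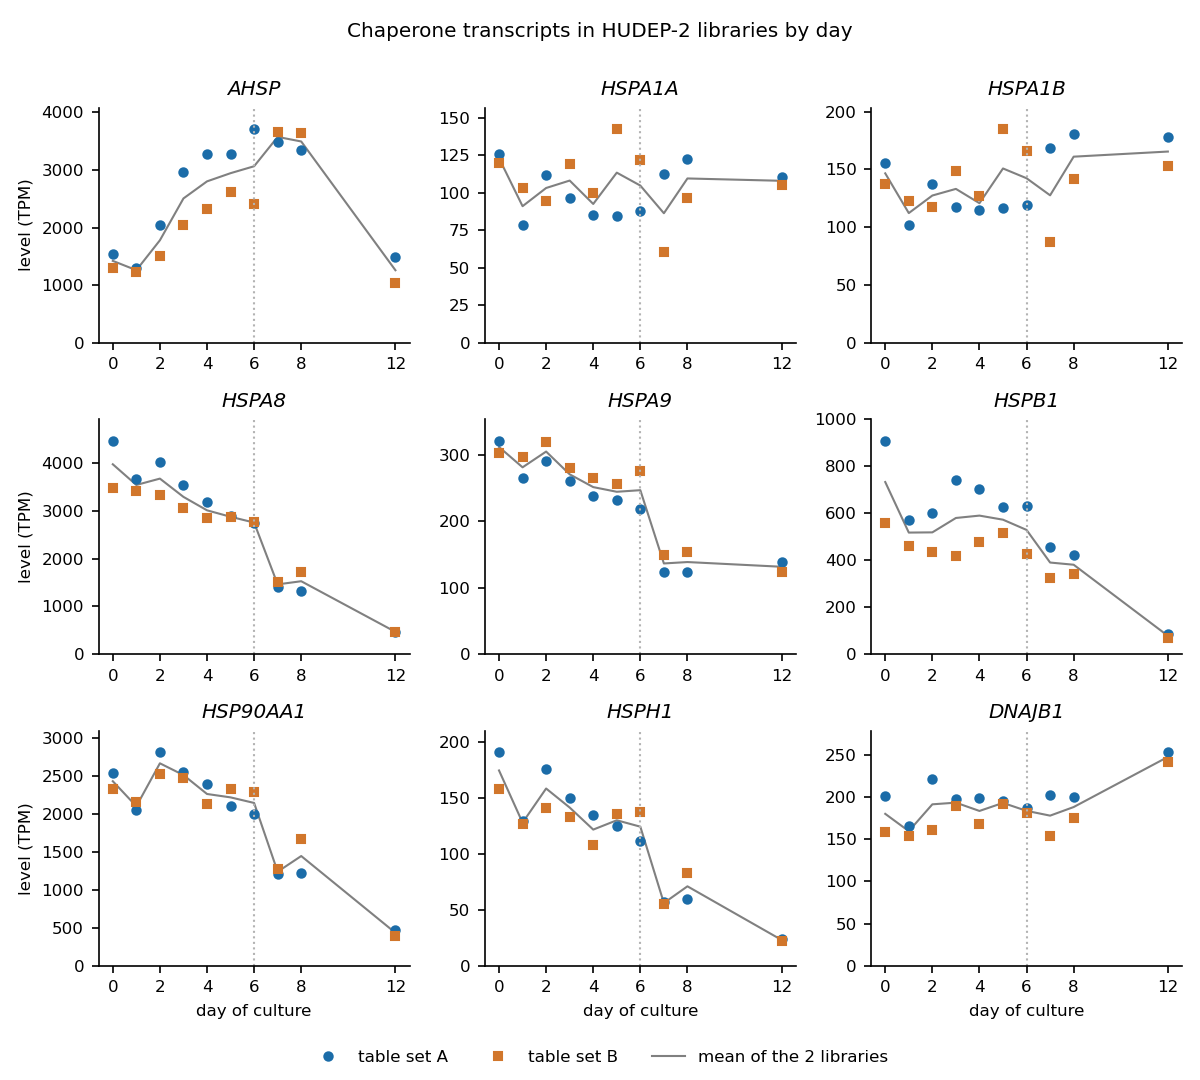
Level in TPM (vertical axis, from 0) of each of the 9 genes against day of culture, with 1 point per library (circles, table set A; squares, table set B), a grey line through the mean of the 2 libraries and a dotted line at day 6, when stem cell factor was left out. AHSP climbed to 3488 and 3660 TPM on day 7, HSPA8 dropped to 471 TPM and below on day 12, and HSPA1A stayed between 60.4 and 142 TPM.

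HSPA8 (chromosome 11, 123057489 to 123062366), the housekeeping HSP70, was the most abundant of the 9 on day 0 in both libraries. Its level was 4470 TPM in set A and 3479 TPM in set B on day 0, then 2745 and 2765 TPM on day 6, and 1402 and 1521 TPM on day 7. On day 8 it was 1331 and 1725 TPM, and on day 12 466 and 471 TPM. No library of days 7, 8 and 12 reached the lowest value of days 0 to 6, which was 2745 TPM. Its rank went from 23 and 36 on day 0 to 92 and 74 on day 8 and to 137 and 118 on day 12, so it was still among the more abundant transcripts at the end. On the TMM scale the mean was 3630 ± 772 CPM on day 0, 2852 ± 232 on day 6, 1925 ± 3.42 on day 7, 2089 ± 103 on day 8 and 1774 ± 365 on day 12 (SD, n = 2 each). On both scales the day 7 libraries lay below those of day 6, and on day 12 the scales parted.

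HSPA1A (chromosome 6, 31815543 to 31817942) and HSPA1B (chromosome 6, 31827738 to 31830254) encode nearly the same protein, and reads shared by the copies could have been split between them in the authors' counting. HSPA1A lay between 60.4 and 142 TPM in the 20 libraries, with a median of 104 TPM. Its day 0 values were 126 and 120 TPM, its day 8 values 122 and 96.5 TPM, and its day 12 values 110 and 105 TPM. HSPA1B lay between 87.0 and 185 TPM, with 156 and 138 TPM on day 0, then 180 and 142 TPM on day 8 and later 178 and 152 TPM on day 12. The sets disagreed most on day 7, when HSPA1A was 112 TPM in set A and 60.4 TPM in set B, and HSPA1B 168 and 87.0 TPM. The set A library of that day was one of those rich in ribosomal RNA, and the part of that in the gap was not tested. All 9 neighbouring steps overlapped for both genes, so no order of days could be read from TPM. In TMM-normalised CPM, HSPA1A was 119 ± 8.54 on day 0, 163 ± 48.5 on day 8 and 433 ± 70.1 on day 12, and HSPA1B 149 ± 18.6, 251 ± 75.7 and 691 ± 58.7 (SD, n = 2 each).

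HSPA9 (chromosome 5, 138553756 to 138575401), the mitochondrial HSP70, was at 321 TPM in set A and 302 TPM in set B on day 0 and at 219 and 275 TPM on day 6. It was 124 and 150 TPM on day 7, then 124 and 154 TPM on day 8 and later 139 and 124 TPM on day 12. Thus in TPM the days fell into an upper group (days 0 to 6, from 219 to 321 TPM) and a lower one (days 7, 8 and 12, at 154 TPM or less). Nothing lay between. In TMM-normalised CPM day 12 was instead the highest day of HSPA9, at 964 ± 109. Day 0 was at 554 ± 45.2 and day 8 at 370 ± 6.29 (SD, n = 2 each). HSPH1 (chromosome 13, 31134973 to 31162388), the exchange factor, was at 191 and 158 TPM on day 0, then 112 and 137 TPM on day 6 and later 56.7 and 55.7 TPM on day 7. On day 8 it was 59.4 and 82.8 TPM, and on day 12 23.8 and 22.4 TPM. The same gap was seen: the lowest library of days 0 to 6 held 108 TPM and the highest of days 7 and 8 held 82.8 TPM.

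HSP90AA1 (chromosome 14, 102080742 to 102139749) was at 2533 TPM in set A and 2320 TPM in set B on day 0 and at 1996 and 2285 TPM on day 6. It was 1201 and 1273 TPM on day 7, then 1225 and 1661 TPM on day 8 and later 470 and 398 TPM on day 12. Its highest values were on day 2, at 2807 and 2516 TPM. On the TMM scale days 0, 6 and 8 were close together, at 3160 ± 316, 3154 ± 25.2 and 2818 ± 232 CPM, and days 7 and 12 lay lower, at 2330 ± 37.0 and 2328 ± 185 (SD, n = 2 each). HSPB1 (chromosome 7, 76302673 to 76304292) was at 909 and 557 TPM on day 0, then 421 and 340 TPM on day 8 and later 87.2 and 69.8 TPM on day 12. Its median gap between sets, 0.48 on the log2 scale, was the widest of the 9, with set A above set B on all 10 days by 0.28 to 0.84, while on day 7 alone HSPA1A and HSPA1B reached 0.89 and 0.95. DNAJB1 (chromosome 19, 14514764 to 14530597) moved the other way from these. It was at 201 and 159 TPM on day 0, then 201 and 176 TPM on day 8 and later 253 and 242 TPM on day 12, where both libraries lay above all 18 others, of which the highest held 222 TPM. Set A was above set B on all 10 days for DNAJB1 too, by 0.03 to 0.46 on the log2 scale.

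The first day of differentiation medium showed no change that could be told from the spread. Of the 9 members, 0 were called between day 1 and day 0 by edgeR's quasi-likelihood test at a Benjamini-Hochberg adjusted p under 0.05, and 0.393% of all genes were. Before adjustment 1 member, HSPH1, was under 0.05 in edgeR (log2 fold change -0.39 ± 0.18, SE; adjusted p = 0.54), and DESeq2 and limma called 0 members. All 9 fitted values were below 0, from -0.42 for HSPB1 to -0.07 for HSPA9, but they share the same day 0 libraries. Without the set A library of day 0, AHSP (0.08), HSPA8 (0.15), HSPA9 (0.02), HSPB1 (0.03) and DNAJB1 (0.13) lay above 0.

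Between day 0 and the basophilic stages AHSP rose, and it was the only member called. The 6 libraries of days 4 to 6 held 2319 to 3712 TPM, with a median of 2944 TPM, against 1546 and 1295 TPM on day 0. The log2 fold change was 1.21 ± 0.25 (SE; edgeR adjusted p = 0.005), with 1.30 in set A and 1.08 in set B. With limma on log2(TPM + 1) it was 1.03 (adjusted p = 0.0059). Of all genes, 7.38% were called higher. Without the set B library of day 0 the AHSP value was 1.05 and lost its call (adjusted p = 0.078), with the remaining day 0 library assumed to vary like the others. HSPA8 had -0.31 ± 0.15 (edgeR adjusted p = 0.19) and HSPH1 -0.35 ± 0.15 (adjusted p = 0.13). Both were called lower by limma on log2(TPM + 1), with -0.45 (adjusted p = 0.035) and -0.47 (adjusted p = 0.036), beside 14% of all genes.

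From the basophilic stages to day 8, AHSP rose further while HSPA8 and HSPA9 fell. AHSP had a log2 fold change of 0.69 ± 0.22 (SE; edgeR adjusted p = 0.041), beside 11.9% of all genes called higher. HSPA8 had -0.48 ± 0.16 (adjusted p = 0.045) and HSPA9 -0.40 ± 0.10 (adjusted p = 0.014), beside 10.8% of all genes called lower. In log2(TPM + 1) units AHSP had 0.27 and was not called (limma adjusted p = 0.38). On that scale HSPA8, HSPA9, HSP90AA1 and HSPH1 were called lower, with values from -0.92 to -0.62, beside 31.1% of all genes. HSPA1B had 0.70 ± 0.24 (adjusted p = 0.051), which came from set A, at 1.17, more than from set B, at 0.19. With the table set as a block HSPA1B (0.69, edgeR adjusted p = 0.036) and DNAJB1 (0.46, adjusted p = 0.019) were called higher too. Without the set A library of day 8, the one with more ribosomal RNA, no member was called, with AHSP at 0.60 (adjusted p = 0.34), HSPA8 at -0.44 (adjusted p = 0.35) and HSPA9 at -0.38 (adjusted p = 0.18). HSPA8 lost its call without any 1 of the 8 libraries, and AHSP without any 1 of the 4 set B libraries (0.57 to 0.76, adjusted p = 0.079 to 0.09).

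Over the whole of days 0 to 8, AHSP and DNAJB1 rose and HSPA8, HSPA9 and HSPH1 fell. Of all genes, 17.7% were called higher and 19.4% lower by edgeR. AHSP had the largest difference, a log2 fold change of 1.89 ± 0.29 (SE; adjusted p = 0.00029), with 1.81 in set A and 1.99 in set B. HSPA8 had -0.80 ± 0.19 (adjusted p = 0.0058), HSPH1 -0.71 ± 0.18 (adjusted p = 0.0087) and HSPA9 -0.58 ± 0.12 (adjusted p = 0.0024). DNAJB1 had 0.67 ± 0.23 (adjusted p = 0.038), which on log2(TPM + 1) was 0.07 and not called (adjusted p = 0.77). HSPA1B had 0.75 ± 0.31 (adjusted p = 0.069), HSPA1A 0.45 ± 0.31 (adjusted p = 0.27), HSPB1 -0.33 ± 0.38 (adjusted p = 0.52) and HSP90AA1 -0.17 ± 0.14 (adjusted p = 0.36). HSPA1A took the opposite sign on log2(TPM + 1), at -0.18 (adjusted p = 0.66).

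On log2(TPM + 1) from day 0 to day 8, 1 member was called higher and 5 lower by limma, beside 7.29% of all genes higher and 39.7% lower. AHSP was the one called higher, at 1.30 ± 0.27 (SE; adjusted p = 0.0018). HSPA8 had -1.38, HSPH1 -1.30, HSPA9 -1.17, HSPB1 -0.91 and HSP90AA1 -0.76, all below the -0.34 of the median gene. AHSP, HSPA8, HSPA9 and HSPH1 were thus called in the same direction on both scales. When only the libraries of the 2 days were fitted, AHSP was the 1 member called (adjusted p = 0.0084). HSPA8 lost its call without the set A library of day 0 (-0.56, adjusted p = 0.081), and HSPH1 without that library (-0.51, adjusted p = 0.10) or the set A library of day 8 (-0.63, adjusted p = 0.078). DNAJB1 lost its call without the set A library of day 8 (0.42, adjusted p = 0.30) or the set B library of day 0 (0.48, adjusted p = 0.25).

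Within these days the largest step of several members lay between day 6 and day 7, a comparison added after the values were seen. In set A these days stand in separate tables. Ribosomal RNA there went from 1.77% of counts on day 6 to 18.5% on day 7, against 1.53% and 2.55% in set B. The part of either in this step was not tested. HSPH1 had a log2 fold change of -0.78 ± 0.18 (SE; edgeR adjusted p = 0.043) and HSPA9 -0.50 ± 0.12 (adjusted p = 0.047), and these 2 members fell, beside 1.69% of all genes called lower. HSPA8 had -0.57 ± 0.19 (adjusted p = 0.12) and HSP90AA1 -0.44 ± 0.14 (adjusted p = 0.098), and both were called lower on log2(TPM + 1), at -0.92 (adjusted p = 0.0088) and -0.79 (adjusted p = 0.013). For all 4 genes both sets had values below 0, such as -0.65 and -0.90 for HSPH1. With the table set as a block, HSPA8 (-0.56, edgeR adjusted p = 0.045) and HSP90AA1 (-0.44, adjusted p = 0.036) were called lower and AHSP higher (0.60, adjusted p = 0.03). HSPA1A and HSPA1B had opposite signs in the sets, 0.68 and 0.82 in set A and -0.63 and -0.55 in set B. With any 1 of the 4 libraries of these days left out, no member was called, and HSPH1 then had between -0.84 and -0.71 and HSPA9 between -0.58 and -0.42.

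From day 8 to day 12 the members were put into 2 groups by their calls with TMM. For genes this abundant the scales differ by nearly the same amount within a library. The order of the members therefore carries over from one scale to the other, and this is no separate evidence for the groups. One group was DNAJB1, HSPA1A, HSPA1B and HSPA9. With TMM these 4 rose, beside 23.8% of all genes called higher. DNAJB1 had a log2 fold change of 1.84 ± 0.24 (SE; edgeR adjusted p = 1.9e-05), HSPA1B 1.46 ± 0.31 (adjusted p = 0.0012), HSPA1A 1.41 ± 0.32 (adjusted p = 0.0017) and HSPA9 1.38 ± 0.12 (adjusted p = 5.3e-07). On log2(TPM + 1) DNAJB1 had 0.40 ± 0.17 (limma adjusted p = 0.059), HSPA1B 0.05, HSPA1A -0.01 and HSPA9 -0.07, so that HSPA1A and HSPA9 took the opposite sign, none was called, and all 4 lay above the -0.68 of the median gene. The summed counts of HSPA1A and HSPA1B had 1.44 with TMM (adjusted p = 0.0013).

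The other group was AHSP, HSPA8, HSP90AA1, HSPH1 and HSPB1. With TMM 0 of these were called by edgeR, beside 33.4% of all genes called lower, 1 (HSPB1) was under 0.05 before adjustment, and their values were -0.05 for AHSP, -0.21 for HSPH1, -0.24 for HSPA8, -0.28 for HSP90AA1 and -0.86 ± 0.38 for HSPB1 (adjusted p = 0.07). With the table set as a block HSPB1 was called lower, at -0.80 (edgeR adjusted p = 0.0016). AHSP was at 0.13 with upper-quartile normalization and so had no direction. On log2(TPM + 1) all 5 were called lower, beside 53.6% of all genes lower and 8.38% higher. HSPB1 had -2.27 ± 0.33 (SE; limma adjusted p = 5.1e-05), HSP90AA1 -1.72 ± 0.16 (adjusted p = 7.6e-07), HSPA8 -1.69 ± 0.17 (adjusted p = 1.5e-06), HSPH1 -1.56 ± 0.18 (adjusted p = 4.6e-06) and AHSP -1.50 ± 0.27 (adjusted p = 0.00031). Globin genes were also taken out of TPM before scaling, an alternative added after the data were seen. The first 4 genes were then called higher (0.83 to 1.29) and 4 of these 5 lower (-1.38 to -0.69). AHSP was at -0.60 (limma adjusted p = 0.073). Of 16958 genes tested that way, 3161 were called higher and 6645 lower. In bulk RNA, fewer cells of a type and less RNA per cell cannot be told apart. The 4 higher calls with TMM were kept without any 1 of the 4 libraries of days 8 and 12.

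**Figure D2:**
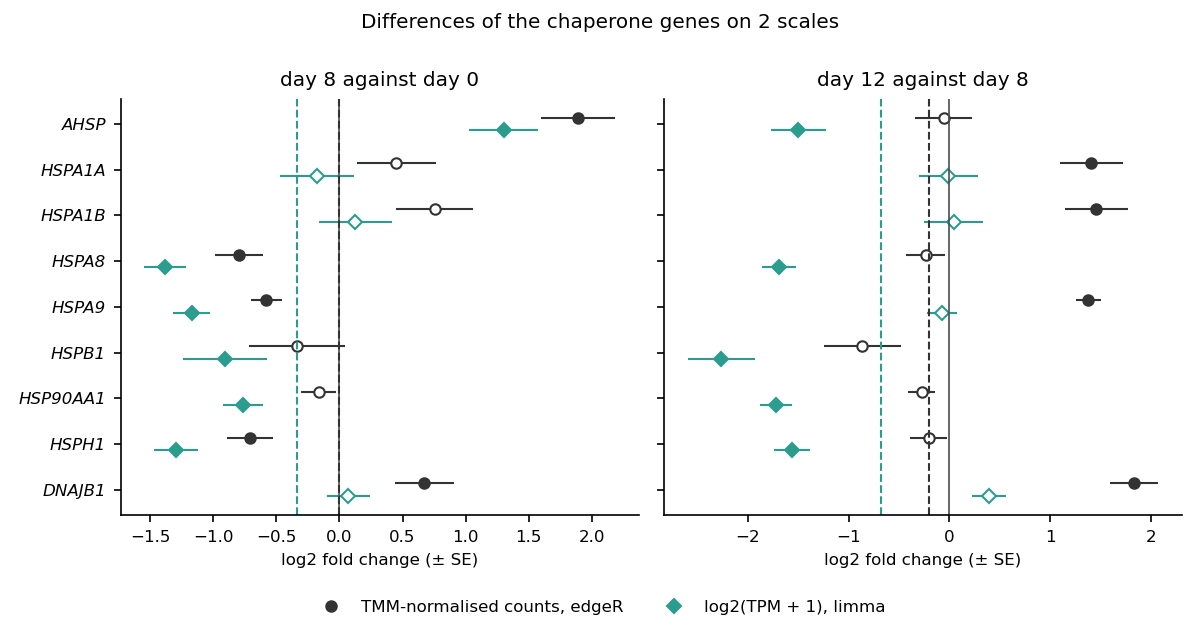
Log2 fold change (horizontal axis) with its standard error as a bar for each of the 9 genes between day 8 and day 0 (left) and between day 12 and day 8 (right), from TMM-normalised counts (circles, edgeR) and from log2(TPM + 1) (diamonds, limma), filled where the adjusted p was under 0.05. Dashed lines mark the median of all genes on each scale, at 0.00 and -0.34 on the left and at -0.20 and -0.68 on the right; on the right HSPA1A, HSPA1B, HSPA9 and DNAJB1 lie above both lines.

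Ratios of TPM within a library do not depend on the scale, and they show only that 2 transcripts changed unequally. They were formed after the values were seen and are given without a test, and those to HSPA8 share that denominator. DNAJB1 stood at 4.50% and 4.57% of HSPA8 on day 0, at 6.80% and 6.54% on day 6, at 15.1% and 10.2% on day 8, and at 54.4% and 51.3% on day 12. The 6 libraries of days 7, 8 and 12 lay above all 14 libraries of days 0 to 6. HSPA1A and HSPA1B together stood at 6.30% and 7.40% of HSPA8 on day 0, 22.8% and 13.8% on day 8, and 62.0% and 54.7% on day 12. The heat-inducible copies thus came nearest to the housekeeping transcript on day 12. HSPA9 kept to between 7.19% and 9.94% of HSPA8 on days 0 to 6 and was at 9.31% and 8.90% on day 8, before 29.9% and 26.3% on day 12.

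HSPH1 lay between 3.53% and 5.12% of HSPA8 in all 20 libraries, with the ranges of early and late days overlapping. HSP90AA1 rose against HSPA8, from 56.7% and 66.7% on day 0 to 92.1% and 96.3% on day 8 and 101% and 84.5% on day 12. HSPB1 was at 20.3% and 16.0% of HSPA8 on day 0, 32.6% and 21.3% on day 7, 31.7% and 19.7% on day 8, and 18.7% and 14.8% on day 12. The 2 libraries above all 14 of days 0 to 6 were those of set A on days 7 and 8, which were rich in ribosomal RNA, and the part of that was not tested. HSPA1A against HSPA1B, the near-copies, was at 80.9% and 87.3% on day 0, 67.9% and 68.2% on day 8 and 61.9% and 69.1% on day 12. How shared reads were split could bear on this ratio, and that was not tested. AHSP against the sum of HBA1 and HBA2, the alpha globin transcripts whose product it holds, was at 15.6% and 21.3% on day 0, 6.31% and 6.51% on day 6, 2.83% and 3.84% on day 8, and 0.548% and 0.372% on day 12. All 6 late libraries lay below all 14 early ones. From day 0 to day 8 HBA1 rose by a log2 fold change of 4.41 ± 0.46 (SE; edgeR adjusted p = 1.5e-05) and HBA2 by 4.29 ± 0.36 (adjusted p = 2.8e-06), beside the 1.89 of AHSP.

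**Figure D3:**
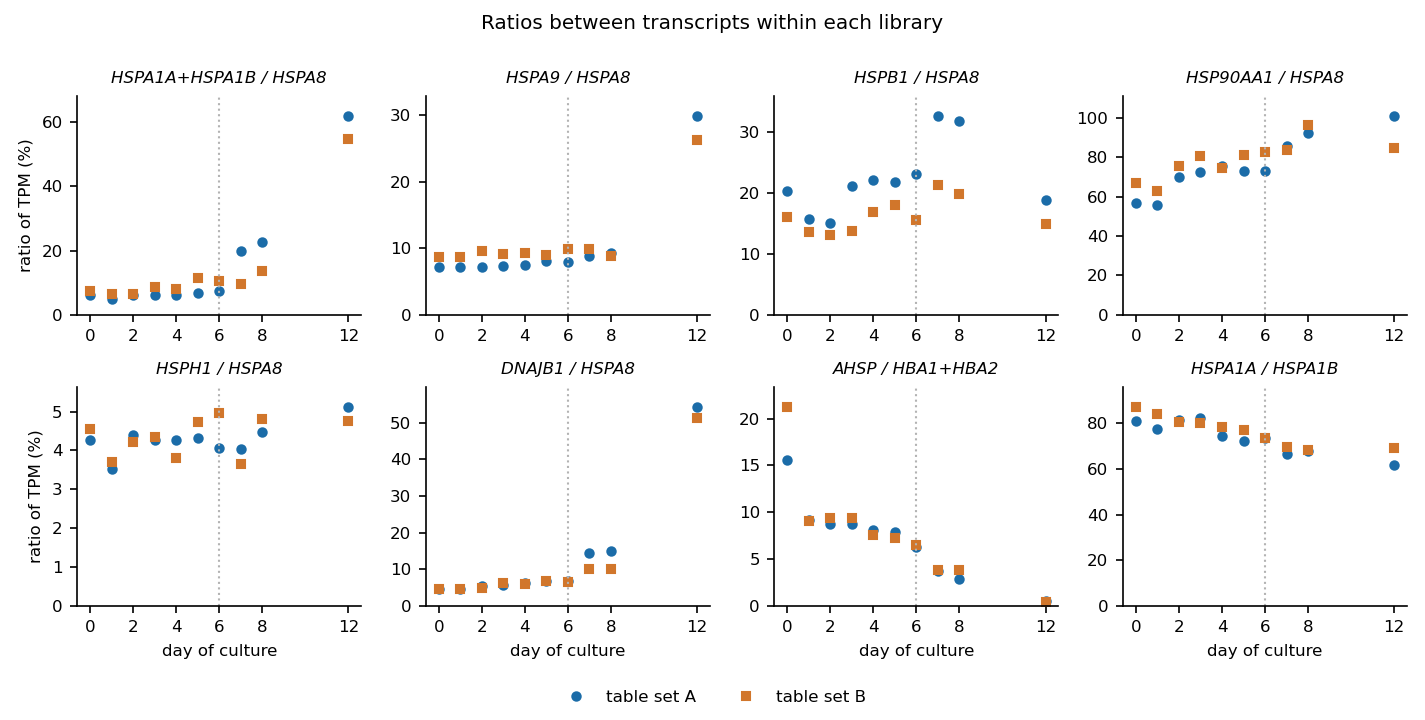
Ratio of TPM, in percent (vertical axis, from 0), between pairs of transcripts within each library against day of culture, with circles for table set A, squares for table set B and a dotted line at day 6, when stem cell factor was left out. DNAJB1 against HSPA8 went from 4.50% on day 0 to 51.3% and 54.4% on day 12, while HSPH1 against HSPA8 stayed between 3.53% and 5.12%, and AHSP against HBA1 plus HBA2 fell to 0.372% and 0.548%.

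The members were set among the other genes of the folding machinery from day 0 to day 8. Of 96 other chaperone and heat shock genes tested, 12 were called higher, 36 lower and 48 not called by edgeR, beside 17.7% of all genes higher and 19.4% lower, and their median log2 fold change was -0.41, against 0.00 over all genes. By limma on log2(TPM + 1) 5 were higher and 63 lower, beside 7.29% and 39.7% of all genes, with a median of -0.92 against -0.34. That all-gene median was -0.52 with a pseudocount of 0.1, so the gap between the medians depends on the pseudocount. The edgeR counts of each list that follow stand beside the same 17.7% and 19.4%. All 3 HSP110 genes beside HSPH1 fell, with HSPA4L the furthest, at -1.38 ± 0.28 (SE; adjusted p = 0.0021) and from 34.4 and 35.5 TPM to 5.89 and 12.3 TPM. All 3 further HSP90 genes fell, led by HSP90B1, the form of the endoplasmic reticulum, at -1.32 ± 0.34 (adjusted p = 0.0084). Among 12 HSP90 co-chaperones 7 fell and 1 rose. FKBP5, a co-chaperone of steroid receptors that glucocorticoids induce, fell by 2.58 on the log2 scale (SE 0.24; adjusted p = 5.3e-06), from 707 and 820 TPM to 65.0 and 106 TPM. The one that rose was UNC45A, a myosin chaperone, at 0.56 ± 0.16 (adjusted p = 0.016), which had -0.05 on log2(TPM + 1).

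Among 7 further HSP70 genes 2 rose and 2 fell. HSPA6, a strictly heat-inducible HSP70, had 2.32 ± 0.37 (SE; adjusted p = 0.0004), from 2.80 and 3.10 TPM to 9.67 and 9.76 TPM. HSPA5, the HSP70 of the endoplasmic reticulum, had -1.23 ± 0.40 (adjusted p = 0.03), from 415 and 257 TPM to 103 and 85.1 TPM, and then rose to 351 and 414 TPM on day 12 (3.48 with TMM, adjusted p = 1.3e-05, and 2.01 on log2(TPM + 1), adjusted p = 0.00017). Of 36 J-domain genes beside DNAJB1, 6 rose and 7 fell, shares close to those over all genes. DNAJB4, a cytosolic J-domain protein, had 2.32 ± 0.36 (adjusted p = 0.0003), and DNAJC18 had -2.18 ± 0.52 (adjusted p = 0.0054) at under 1 TPM. Of 9 nucleotide exchange factors 5 fell and 0 rose, with SIL1, which serves HSPA5, at -1.68 ± 0.28 (adjusted p = 0.00052).

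Among 10 chaperonin genes, which form the barrel-shaped folding chambers of cytosol and mitochondria, 7 fell and 0 rose, with the mitochondrial cofactor HSPE1 at -1.05 ± 0.18 (SE; adjusted p = 0.00062). Of 6 prefoldin genes, which hand chains to the cytosolic chamber, 2 rose and 1 fell, VBP1 at 1.02 ± 0.20 (adjusted p = 0.0013) and PFDN2 at -0.53 ± 0.19 (adjusted p = 0.047). VBP1 had 0.43 on log2(TPM + 1) and was not called (adjusted p = 0.12). Of the 3 further small heat shock genes tested 0 were called by edgeR or limma, and 1 had an unadjusted p under 0.05. Of 4 heat shock factor genes 1 fell, HSBP1, a binder of heat shock factors, at -0.62 ± 0.12 (adjusted p = 0.0015). In the list of 15 further heat-inducible genes, which shares genes with the lists above, 3 rose and 6 fell, with HSPA6 and HSPA4L at the ends. For comparison, 8 of 9 globin genes rose, HBM the most at 5.29 ± 0.27 (adjusted p = 1.4e-07). All 4 erythroid transcription factors rose, TAL1 the most at 1.75 ± 0.20 (adjusted p = 3.5e-05).

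From day 8 to day 12, 24 of the 96 genes were called higher and 38 lower with TMM, near the 23.8% and 33.4% of all genes, with a median of -0.27 beside -0.20 over all genes. By limma on log2(TPM + 1) 3 were higher and 71 lower, beside 8.38% and 53.6% of all genes, with a median of -1.35 beside -0.68. The all-gene median was -1.20 with a pseudocount of 0.1, so this gap too depends on the pseudocount. Chaperonins were lower on both scales, 9 of 10 with TMM and 10 of 10 on log2(TPM + 1). J-domain genes were divided with TMM, 10 higher and 14 lower, and were lower on log2(TPM + 1), with 0 higher and 25 lower. FKBP5 fell by 3.86 on the log2 scale with TMM (adjusted p = 2.9e-08), to 2.94 and 1.45 TPM.

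**Figure D4:**
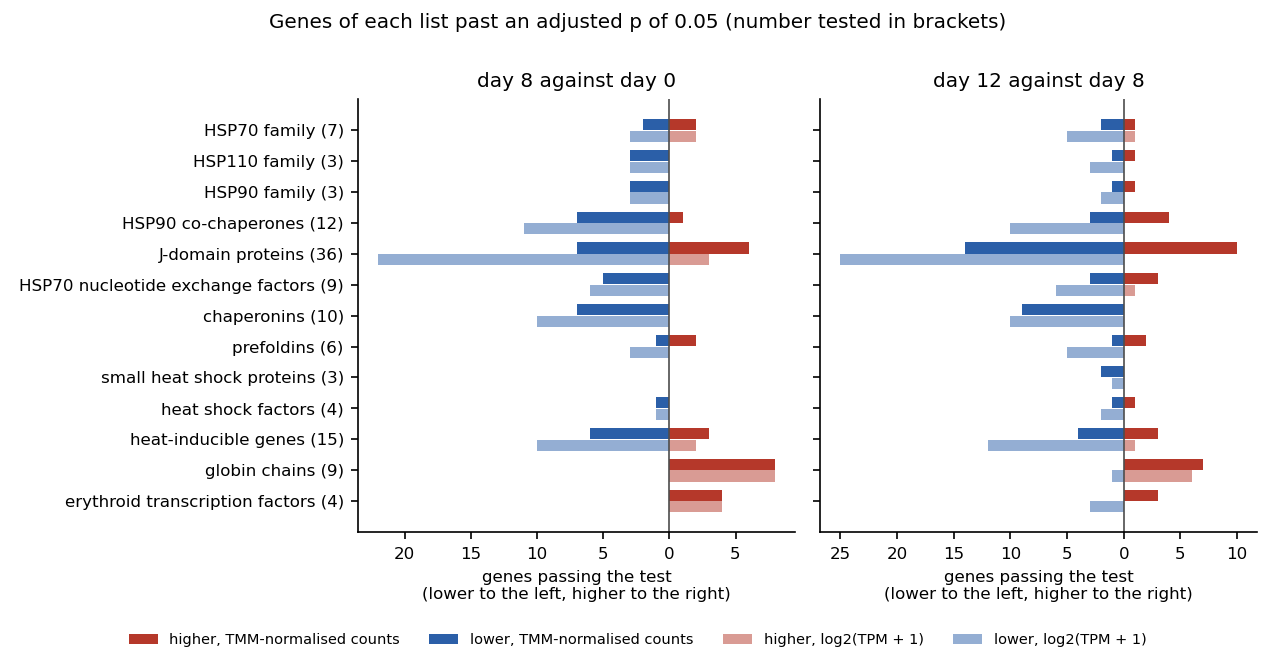
Number of genes of each list with an adjusted p under 0.05 (horizontal axis, lower to the left and higher to the right of 0) between day 8 and day 0 and between day 12 and day 8, from TMM-normalised counts (dark bars) and log2(TPM + 1) (pale bars), with the number tested in brackets. Chaperonins were lower on both scales in both comparisons, and J-domain proteins turned from 10 higher and 14 lower with TMM to 0 higher and 25 lower on log2(TPM + 1) from day 8 to day 12.

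Genes with the most similar course were looked up by Pearson correlation of log2 TMM-normalised CPM over the 20 libraries, among 14682 genes, which share libraries, depth and days. The nearest to AHSP were GYPB (r = 0.98), the gene of the red cell surface protein glycophorin B, then MAMLD1 (r = 0.98) and LOC112267992 (r = 0.97). The mean level of GYPB was 92.5 TPM on day 0, 589 TPM by day 8 and 227 TPM by day 12. The nearest to HSPA1A was its near-copy HSPA1B (r = 0.99), followed by KHDC4 (r = 0.97) and LOC105372323 (r = 0.96). The nearest to HSPA8 were NDUFAF2 (r = 0.98), an assembly factor of mitochondrial complex I, DNMBP (r = 0.97) and DAP3 (r = 0.97), a protein of the mitochondrial ribosome.

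The transcript models of the members were checked for a switch of isoform. AHSP had 3 models, and its main one held 85.3 to 88.3% of the gene's TPM on days 0 to 6 and 83.5 and 83.8% on day 12. The third one rose from a median of 2.31% on days 0 to 6 to 5.07 and 5.59% on day 12. HSPA8's main model held at least 95.9% in every library, that of HSP90AA1 at least 98.5% and that of DNAJB1 at least 95.4%. HSPH1 was the exception, with 11 models and a main one at 50.2 to 81.3% on days 0 to 6 and at 49.0 and 75.1% on day 12, so the 2 day 12 libraries differed by more than any shift. HSPA1A, HSPA1B, HSPA9 and HSPB1 had 1 model each.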

How the data were processed

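HUDEP-2 RNA-seq libraries (TruSeq stranded mRNA; strand-specific counting is not given in the sources used here) were taken on 10 days, 2 per day. Per the labels' processing notes the tools were Trimmomatic 0.38, HISAT2 2.1.0 and StringTie 2.1.3b with hg38. The authors deposited, per transcript, raw read counts and TPM values, the latter normalised for length and library total. FPKM columns and a surplus day 0 column set were not used (23 columns). Transcripts were summed by gene symbol. Columns name a day but no replicate, and nothing says that the 2 libraries of a day came from separate cultures, so p-values measure only the spread between these libraries. Counts from all 20 libraries were fitted with edgeR 4.0.16 (R 4.3.3; filterByExpr, TMM, 1 coefficient per day, quasi-likelihood test, Benjamini-Hochberg over 16784 genes). The deposited TPM values were tested with limma 3.58.1 on log2(TPM + 1), which understates changes of low genes. DESeq2 1.42.0, other normalizations and filters, a TPM pseudocount of 0.1, the table set as a block, and leaving out libraries were tried. Scripts were tested on simulated data. Comparisons with day 8 share those libraries. Members and lists were chosen with earlier results of these data known. Named genes were the members, HBA1 and HBA2, in each list the largest called rise and fall from day 0 to day 8 with 10 counts or more on average and both days apart, and the 3 genes most correlated with AHSP, HSPA1A and HSPA8. Counts of genes called are per list, without a set test.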

Additional observations from a re-analysis of the deposited data

How the results depend on the processing

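No paired analysis was possible because the columns carry no replicate number. The fit with the table set as a block, given below, only separates set A from set B. Set A joins tables of separate groups of days, so that fit does not show which libraries belong together. Most member values kept their direction and their side of the threshold under the alternatives, and no called member value turned direction apart from HSPA1A and HSPA9 from day 8 to day 12 on TPM. The cause of each change below was not tested.

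Values of opposite sign were as follows. With DESeq2, HSP90AA1 had -0.0014 for days 4 to 6 against day 0 and AHSP 0.12 for day 12 against day 8. Upper-quartile normalization gave AHSP 0.13 for day 12 against day 8. With at least 10 counts in every library, HSP90AA1 had -0.0093 and AHSP 0.049 in these comparisons, and with only the days compared AHSP had 0.0079. On log2(TPM + 1), and nearly the same with a pseudocount of 0.1, HSPA1B had -0.11 and HSP90AA1 -0.14 for days 4 to 6 against day 0, HSPA1A -0.011 and HSPA9 -0.069 (-0.070 with the smaller pseudocount) for day 12 against day 8, and HSPA1A -0.18 for day 8 against day 0. For day 7 against day 6, HSPA1A had -0.32 (pseudocount 0.1, -0.33), HSPA1B -0.21 (-0.22) and DNAJB1 -0.058 (-0.059). On TPM without globin genes, HSP90AA1 had -0.013 for days 4 to 6 against day 0, and for day 7 against day 6 HSPA1A had -0.11 and HSPA1B -0.0030.

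The number of members called for day 7 against day 6, 2 in the report, was 4 with DESeq2, 0 with upper-quartile normalization, 1 with no filter beyond 1 count, 0 with only the days compared, 4 on TPM with either pseudocount or without globin genes, and 5 with the table set as a block. For day 8 against days 4 to 6, 3 in the report, it was 1 with only the days compared and 5 with the block. For day 8 against day 0, 5 in the report, it was 1 with only the days compared. For days 4 to 6 against day 0 it was 3 on TPM with either pseudocount, and for day 12 against day 8 it was 8 on TPM without globin genes. HSPB1 was called lower from day 8 to day 12 with no filter beyond 1 count (-0.91, edgeR adjusted p = 0.031), with only the days compared (-0.80, adjusted p = 0.039) and with the block (-0.80, adjusted p = 0.0016).

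Over all genes, the number called for day 1 against day 0 was 66, and 437 with DESeq2, 0 with only the days compared, 299 and 157 on TPM with a pseudocount of 1 and 0.1, 241 on TPM without globin genes and 442 with the block. For days 4 to 6 against day 0 it was 2785, and 4809 with the block. For day 8 against days 4 to 6 it was 3816, and 2418 with only the days compared, 5908 and 5872 on TPM and 6104 with the block. For day 8 against day 0 it was 6224, and 3726 with only the days compared. For day 7 against day 6 it was 431, and 1754 with DESeq2, 0 with only the days compared, 1655 and 1527 on TPM and 2274 with the block. TPM also moved the split: for day 12 against day 8 edgeR called 3997 higher and 5611 lower, and limma 1407 and 8997. For day 8 against day 0 these were 2970 and 3254, and 1223 and 6660. For day 8 against days 4 to 6 they were 2001 and 1815, and 695 and 5213, for days 4 to 6 against day 0 1238 and 1547, and 760 and 2358, and for day 7 against day 6 148 and 283, and 117 and 1538.

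With 1 library left out at a time, the members called were 0 to 1 for days 4 to 6 against day 0, 0 to 3 for day 8 against days 4 to 6, 3 to 6 for day 8 against day 0 and 0 to 0 for day 7 against day 6. The genes called were 7 to 50 for day 1 against day 0, 959 to 2460 for days 4 to 6 against day 0, 464 to 4014 for day 8 against days 4 to 6, 3568 to 5833 for day 8 against day 0 and 67 to 211 for day 7 against day 6. Member values that changed sign were for day 1 against day 0 those of AHSP (-0.25 to 0.085), HSPA8 (-0.29 to 0.15), HSPA9 (-0.15 to 0.017), HSPB1 (-0.76 to 0.026) and DNAJB1 (-0.29 to 0.13), none of them called. For days 4 to 6 against day 0 they were HSPB1 (-0.57 to 0.22), HSP90AA1 (-0.086 to 0.12), HSPA1A (-0.24 to 0.0016) and HSPA1B (-0.068 to 0.19). HSPB1 ran from -0.68 to 0.11 for day 8 against day 0, from -0.43 to 0.15 for day 8 against days 4 to 6 and from -0.44 to 0.32 for day 7 against day 6. In the last comparison HSPA1A ran from -0.49 to 0.52 and HSPA1B from -0.41 to 0.66, and AHSP from -0.15 to 0.014 for day 12 against day 8.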
